A study of Mus musculus with 6 samples.

Results

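The enzymes that carry tryptophan through kynurenine to NAD, the branch that leads away from NAD, and the salvage of NAD from vitamin B3 were followed through 10 genes, Ido2, Afmid, Kmo, Kynu, Haao, Acmsd, Qprt, Nadsyn1, Nampt and Naprt. The members were taken by gene name from deposited tables of 54532 genes, and all 10 passed the filter on low counts that kept 15816 genes. RNA was sequenced from kidney tissue of 3 WT mice and 3 mice without the TRPM2 channel (Trpm2-/-), so the data are of bulk tissue. The study's methods and the sample titles do not say which part of the kidney was taken. Both groups were labelled as C57BL/6J mice of 6 to 8 weeks, and every mouse had received cisplatin at 18 mg/kg, with kidneys taken 72 h later. The study's methods give a somewhat older age for cisplatin-treated mice than the labels do. No untreated kidney was sequenced, so each value is a level under cisplatin. The deletion was in all cells of the body rather than in one cell type, and according to the methods the WT and Trpm2-/- mice came from separate sources, so genotype and source cannot be told apart. The question that the comparison addresses is which transcripts of this route differed in the injured kidney when TRPM2 was missing.

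Tryptophan is opened by TDO2, IDO1 or IDO2 to formylkynurenine, which AFMID turns into kynurenine. KMO, KYNU and HAAO then work in sequence to give an unstable semialdehyde. ACMSD removes this intermediate towards full oxidation, and what escapes closes by itself to quinolinate, which QPRT commits to NAD. NADSYN1 is the last enzyme of that route, whereas NAMPT and NAPRT start from nicotinamide and nicotinic acid. In the kidney the proximal tubule is the main site of the route from tryptophan, and its NAD is used by the mitochondria that power reabsorption.

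Promoter windows of GRCm38 from RefSeq, 250 bases before to 50 after the start, were used for 6 of the 10 genes (Afmid, Kmo, Haao, Qprt, Nadsyn1 and Nampt). The windows of Haao and Kmo, whose transcripts fell together, are shown beside those of Nadsyn1, which was not called, and Nampt, which fell by a smaller fold. Each is read 5′ to 3′ on the strand of the gene, and capitals mark matches on either strand to a set of searched motifs. For HNF4, a factor of tubule and liver, the core was spelled CAAAGTC, and for nuclear receptors in general the half-site was AGGTCA. The general promoter motifs were a TATA box spelled TATAAA, the box whose letters are CCAAT, an NRF1 half-site spelled TGCGCA and a GC box spelled GGGCGG. The NRF1 letters read the same on both strands and were counted once. None of these matches is a measured binding site.
Haao: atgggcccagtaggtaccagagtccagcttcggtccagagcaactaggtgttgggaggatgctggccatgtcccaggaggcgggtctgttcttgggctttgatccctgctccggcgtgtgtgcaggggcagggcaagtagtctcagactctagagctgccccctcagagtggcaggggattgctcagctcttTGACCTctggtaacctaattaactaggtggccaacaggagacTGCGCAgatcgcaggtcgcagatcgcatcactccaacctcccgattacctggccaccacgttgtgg
Kmo: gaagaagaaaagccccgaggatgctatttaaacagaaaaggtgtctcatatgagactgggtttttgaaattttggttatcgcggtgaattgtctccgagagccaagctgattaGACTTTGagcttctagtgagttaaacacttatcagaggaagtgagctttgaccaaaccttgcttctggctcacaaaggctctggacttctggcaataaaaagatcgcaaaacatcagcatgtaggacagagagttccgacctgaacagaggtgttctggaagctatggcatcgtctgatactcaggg
Nadsyn1: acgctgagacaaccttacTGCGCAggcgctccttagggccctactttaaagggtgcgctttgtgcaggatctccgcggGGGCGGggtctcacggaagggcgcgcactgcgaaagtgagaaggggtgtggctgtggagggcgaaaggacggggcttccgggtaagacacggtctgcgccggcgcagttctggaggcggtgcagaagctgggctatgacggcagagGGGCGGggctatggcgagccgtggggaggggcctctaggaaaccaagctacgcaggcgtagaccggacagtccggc
Nampt: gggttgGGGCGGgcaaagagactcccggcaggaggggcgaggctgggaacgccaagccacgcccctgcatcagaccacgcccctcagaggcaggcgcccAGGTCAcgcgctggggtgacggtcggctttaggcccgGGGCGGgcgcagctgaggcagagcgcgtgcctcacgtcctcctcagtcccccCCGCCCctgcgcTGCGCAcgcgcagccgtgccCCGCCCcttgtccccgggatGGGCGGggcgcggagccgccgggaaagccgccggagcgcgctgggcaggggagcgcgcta
The windows are chr17:83846741-83847040 (minus strand) for Haao, chr1:175631943-175632242 (plus) for Kmo, chr7:143822803-143823102 (minus) for Nadsyn1 and chr12:32820085-32820384 (plus) for Nampt. Haao, Kmo and Nampt have annotated transcripts that start upstream of these windows, and the deposited position of Haao is not that of the GENCODE mouse annotation, where the gene spans chr17:83831156-83847963.

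The window of Haao held a nuclear receptor half-site on the opposite strand, whose first base lay at -58 from the start, and an NRF1 half-site at -16. The same motifs occurred in the genes shown beside it, with an NRF1 half-site at -232 in Nadsyn1 and at -50 in Nampt and a nuclear receptor half-site at -151 in Nampt. Kmo had an HNF4 core at -137 on the opposite strand. Among 32851 promoter windows of the same length, 4.44% held CAAAGTC, 16.3% held AGGTCA and 7.76% held TGCGCA, so single matches of this kind are not particular to these genes. GC boxes, present in 35.7% of windows, were matched in the window of Afmid, 2 times in Nadsyn1 and 5 times in Nampt, and in no window of Haao, Kmo or Qprt. The TATA box and the CCAAT box, in 13.6% and 37.4% of windows, were matched in none of the 6. The CpG count was 7 for Kmo and Qprt, 10 for Haao, 18 for Afmid, 27 for Nadsyn1 and 36 for Nampt, beside a median of 7 over all windows.

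Gene totals were between 14053307 and 17150089 counts per library, at which 3 counts correspond to 0.184 to 0.205 CPM (CPM, counts scaled to TMM library sizes, where the limit covers counting error only). Trpm2 had 5, 5 and 27 counts in WT mice and 10, 16 and 20 in Trpm2-/- mice, and since the allele keeps most exons these counts do not check the labels. Tissue markers moved with genotype for some cell types only. Summed levels of thick limb and distal convoluted tubule, macrophage, neutrophil and lymphocyte markers overlapped between genotypes. Of their tested genes, 1 of 5, 1 of 8, 0 of 4 and 0 of 1 were called lower, in that order. The summed level of 12 proximal tubule markers was 2799 to 3822 CPM in WT mice and 779 to 1212 CPM in Trpm2-/- mice, none of the 12 was at 0, and 11 were called lower. Collecting duct markers were mixed, and 2 of 6 (Aqp2 and Aqp3) were lower. Their summed level was 1252 to 1548 CPM in WT mice and 759 to 883 CPM in Trpm2-/- mice. Most of it was Aqp2, at 970 to 1273 against 484 to 626 CPM. Of the others, none of them called, Scnn1g, Atp6v1g3 and Slc26a4 overlapped (log2 fold changes -0.14, 0.01 and 0.25) and Slc4a1 (-1.57) did not. Of 6 markers of injured tubules, 2 were higher, namely Krt20 (log2 fold change 0.79, adjusted p = 0.0189) and Sox9 (1.16, adjusted p = 0.0115), and the summed level overlapped. Most of that sum was Spp1, at 11457 to 13304 CPM in WT mice and 11416 to 18489 CPM in Trpm2-/- mice. Havcr1, which encodes Kim-1, was higher in every Trpm2-/- mouse (1554 to 1902 against 1142 to 1393 CPM) but was not called (0.51, adjusted p = 0.0747). Krt20 and Sox9 did not overlap either, whereas Lcn2, Vcam1 and Spp1 did. In bulk kidney, fewer proximal tubule cells and less RNA per cell cannot be told apart. Of 8 hepatocyte markers, 5 were tested and 2 of these were lower, namely Ttr (45 against 21.3 CPM, adjusted p = 0.0213) and Serpina1a (104 against 47.9 CPM, adjusted p = 0.0492), with a list median of -1.08. Fgb reached 207 CPM in Trpm2-/- replicate 1 and was not called, whereas Cps1 was at 0 counts and Tat at no more than 3 in every library. The summed level of this list overlapped, at 157 to 252 CPM in WT mice and 104 to 269 CPM in Trpm2-/- mice. Trpm2-/- replicate 4 stood apart, with 385 CPM of podocyte markers against 95.1 to 136 in the other libraries and 142 CPM of endothelial markers against 33 to 67.7. Genes of the mitochondrial genome took 4.43% to 4.72% of counts in WT mice and 7.91%, 7.95% and 11% in Trpm2-/- mice.

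Of the 10 genes, 7 were lower in Trpm2-/- kidneys and 0 were higher at an adjusted p under 0.05 (edgeR's quasi-likelihood test, Benjamini-Hochberg adjustment over all genes tested), while 7.28% of all genes tested were called lower and 4.74% higher. At an unadjusted p under 0.05, 8 were lower and 0 higher, and DESeq2 and limma-voom each called 7 lower and 0 higher at an adjusted p under 0.05. Of all 15816 genes tested, DESeq2 called 2539 and limma-voom 1850 in either direction. The share of all genes at the unadjusted threshold was not counted. The 7 from edgeR were Ido2, Kmo, Kynu, Haao, Acmsd, Nampt and Naprt. Their CPM did not overlap between the genotypes, a separation that 16.8% of all genes tested showed in this direction. At the threshold of the methods, a log2 fold change beyond 1 with an unadjusted p under 0.05, Ido2, Kmo, Kynu, Haao and Acmsd were lower, compared with 4.10% of genes tested. The median log2 fold change was -1.18 over the 10 genes and 0.02 over all genes tested. The number called was sensitive to single mice. It was 3 (Kmo, Haao and Nampt) without WT replicate 2 and 2 (Kmo and Haao) without WT replicate 3. Without Trpm2-/- replicate 1, 5 were called, with Ido2 and Kynu lost. Without WT replicate 1 or Trpm2-/- replicate 4, 6 were called. Kmo and Haao were called with every mouse left out in turn.

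**Figure D1:**
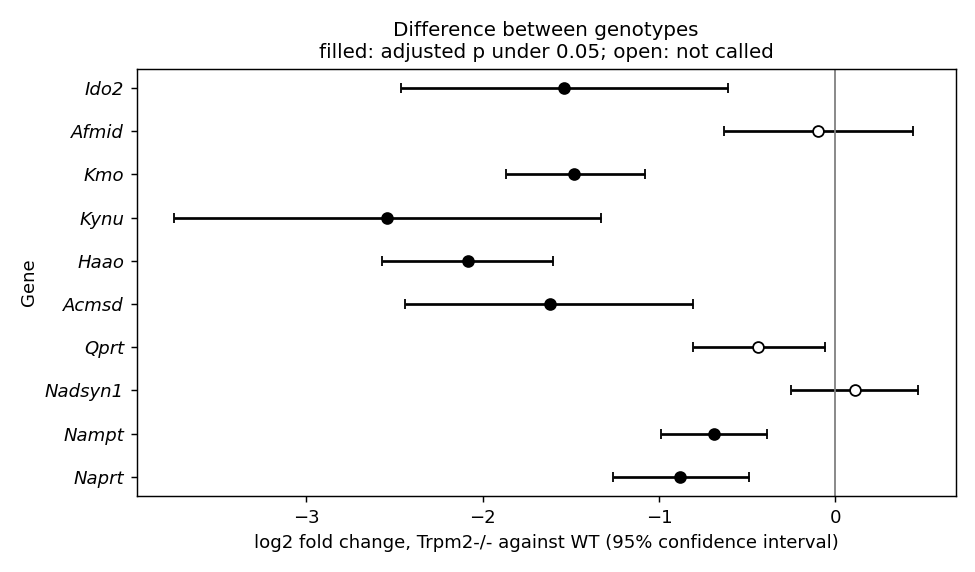
Log2 fold change of each enzyme in Trpm2-/- against WT kidneys (x axis, bars are 95% confidence intervals from edgeR), with genes in the order of the route on the y axis. Filled points have an adjusted p under 0.05, and the largest estimated falls are Kynu at -2.54 and Haao at -2.08, whose intervals overlap.

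Levels were compared between genes on the FPKM scale, which divides by gene length. In WT kidneys Haao was highest (92.9, 116 and 138 FPKM), followed by Nampt (41.8 to 50.1), Naprt (14.4 to 21.2), Qprt (11.1 to 15.7), Kmo (9.84 to 14.8), Nadsyn1 (4.92 to 6.28), Acmsd (3.4 to 6.29), Afmid (2.4 to 2.52), Ido2 (1.07 to 1.93) and Kynu (0.387 to 1.24). The ranges of Naprt and Qprt, Qprt and Kmo, Nadsyn1 and Acmsd, and Ido2 and Kynu overlapped, and the other neighbours were apart. In Trpm2-/- kidneys Haao (20.5 to 35 FPKM) overlapped Nampt (27 to 31.3), Qprt (8.95 to 11.2) overlapped Naprt (8.72 to 10.9), and Afmid (1.57 to 2.74) overlapped Acmsd (0.782 to 2.11). Nadsyn1 (5.27 to 6.34 FPKM) lay just above Kmo (4.17 to 5.26) in these mice, whereas in WT mice it lay below Kmo. The FPKM of Haao rests on a deposited gene length of 1222 bases, and its annotated exons in the GENCODE mouse annotation cover 4681 bases, so its place in the order depends on that length.

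**Figure D2:**
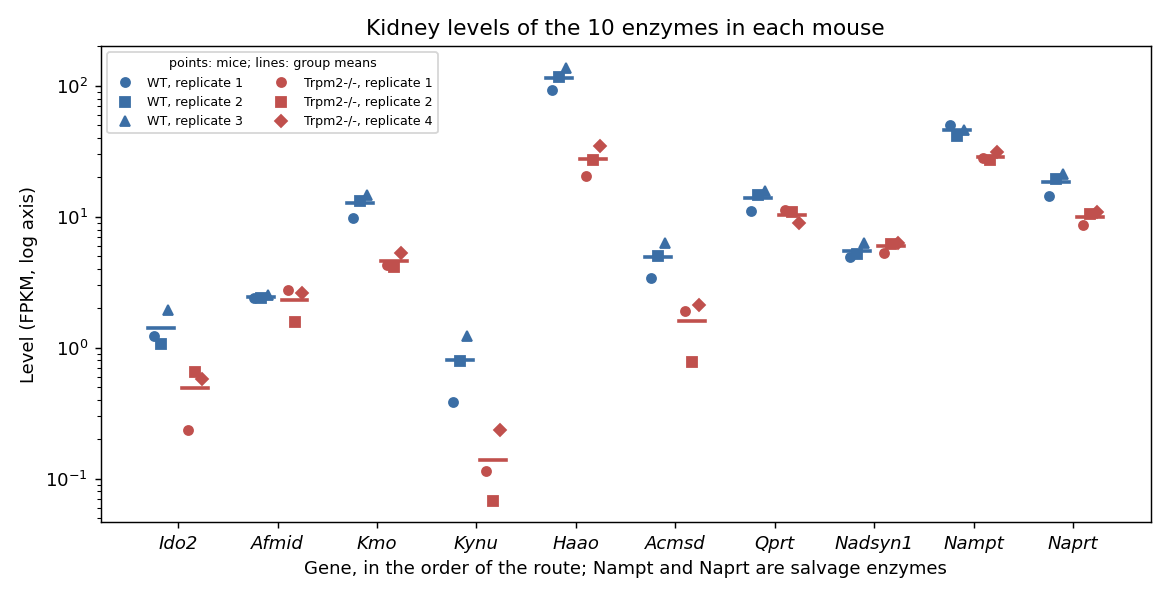
FPKM of the 10 enzymes (y axis, log scale) in each of 3 WT (blue) and 3 Trpm2-/- (red) kidneys, with lines at group means and genes in the order of the route on the x axis. Red points lie below all blue points for Ido2, Kmo, Kynu, Haao, Acmsd, Nampt and Naprt, and the colours overlap for Afmid, Qprt and Nadsyn1.

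At the entry of the route, Ido2 was the dioxygenase with measurable transcript. Ido2 (chr8:24531892-24576333, minus strand of the deposited positions) was at 5.12, 4.43 and 8.04 CPM in WT mice and at 0.979, 2.73 and 2.37 CPM in Trpm2-/- mice. All Trpm2-/- values were below the WT values, with replicate 1 lowest. The log2 fold change was -1.54 (SE 0.414, adjusted p = 0.0417), and Ido2 was the call nearest the threshold, lost in 5 of the 6 fits without 1 mouse (adjusted p 0.0539 to 0.182) and kept only without Trpm2-/- replicate 2. Tdo2 and Ido1, the better known first enzymes, had group means of at most 0.186 CPM and 0.0208 CPM and did not pass the filter. Their difference between genotypes was not detectable at this depth.

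Afmid (chr11:117825924-117839908), the formamidase that releases kynurenine, was at 9.68, 9.77 and 10.2 CPM in WT mice and 11, 6.35 and 10.4 CPM in Trpm2-/- mice. The groups overlapped, with replicate 2 as the low Trpm2-/- mouse. Its log2 fold change was -0.10 (SE 0.24, 95% interval -0.63 to 0.44, adjusted p = 0.835) and turned to 0.11 without that mouse. Of the exonic bases of Afmid, 44.2% are shared with Gm20708 on the same strand, a gene with 0 counts in all libraries, so the level of Afmid is uncertain.

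Transcripts of the 3 enzymes that act in sequence from kynurenine onwards all fell. Kmo (chr1:175620381-175662116), the hydroxylase of the outer mitochondrial membrane, was at 53, 71.6 and 80.2 CPM in WT mice and 23.1, 22.5 and 28 CPM in Trpm2-/- mice. The Trpm2-/- mice lay close together and the mean was 35.9% of WT (log2 fold change -1.48, SE 0.177, adjusted p = 0.00191). Kynu (chr2:43555329-43682715), which cleaves the side chain, was the scarcest member and had the largest fall. Its counts were 44, 87 and 142 in WT mice and 13, 7 and 26 in Trpm2-/- mice, or 2.71, 5.59 and 8.71 CPM against 0.796, 0.478 and 1.62 CPM. WT mice spread over a wide range (5.67 ± 3.00 CPM, SD, n = 3) and the Trpm2-/- mean was 17% of theirs. The log2 fold change was -2.54 (SE 0.539, adjusted p = 0.0170), and the adjusted p was 0.0528 without WT replicate 2, 0.0770 without WT replicate 3 and 0.0646 without Trpm2-/- replicate 1.

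Haao (chr17:83831356-83846790, minus strand) makes the semialdehyde from which quinolinate forms. It was at 129, 163 and 194 CPM in WT mice and 28.5, 38 and 48.1 CPM in Trpm2-/- mice. The highest Trpm2-/- mouse was well below the lowest WT mouse, and the mean was 23.6% of WT (162 ± 32.3 against 38.2 ± 9.84 CPM, SD, n = 3). The log2 fold change was -2.08 (SE 0.218, adjusted p = 0.00131), with values from -2.28 to -1.91 under every alternative but the scaling to proximal tubule markers.

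At the branch, the enzyme that leads away from NAD fell and the enzyme that leads to it was not called. Acmsd was at 11, 16.2 and 20.4 CPM in WT mice and 6.12, 2.53 and 6.72 CPM in Trpm2-/- mice. Replicate 2 was the lowest Trpm2-/- mouse and no value reached the WT range. The log2 fold change was -1.62 (SE 0.363, adjusted p = 0.0206), with an adjusted p of 0.0691 and 0.0913 without WT replicate 2 or 3. Qprt (chr7:127107114-127122226, minus strand), which turns quinolinate into a mononucleotide, was at 33.6, 44.5 and 47.6 CPM in WT mice and 33.8, 32.6 and 26.7 CPM in Trpm2-/- mice. WT replicate 1 was within the Trpm2-/- range. The log2 fold change of Qprt was -0.44 (SE 0.166, 95% interval -0.81 to -0.06, unadjusted p = 0.0267) and its adjusted p, from edgeR, was 0.121.

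Ratios within a mouse do not depend on library size. The FPKM ratio of Acmsd to Qprt was 0.305, 0.34 and 0.401 in WT mice and 0.169, 0.0725 and 0.236 in Trpm2-/- mice. On the log2 scale the means were -1.53 ± 0.198 and -2.81 ± 0.878 (SD, n = 3), a difference of -1.28 that was -0.79 without Trpm2-/- replicate 2. The ratio of Haao to Qprt was 8.33, 7.9 and 8.82 in WT mice, a narrow range, and 1.82, 2.52 and 3.91 in Trpm2-/- mice. Its log2 means were 3.06 ± 0.0793 and 1.39 ± 0.552, a difference of -1.67. Neither ratio overlapped between genotypes. Both are given as values, with no test of the difference, and the share of all genes that separate from Qprt in this way was not counted. Relative to proximal tubule markers of the same mouse, the log2 difference was -0.05 for Acmsd, -0.44 for Haao and 1.24 for Qprt. The markers thus fell against Qprt much as Acmsd did, so a fall against Qprt is not particular to these enzymes.

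**Figure D3:**
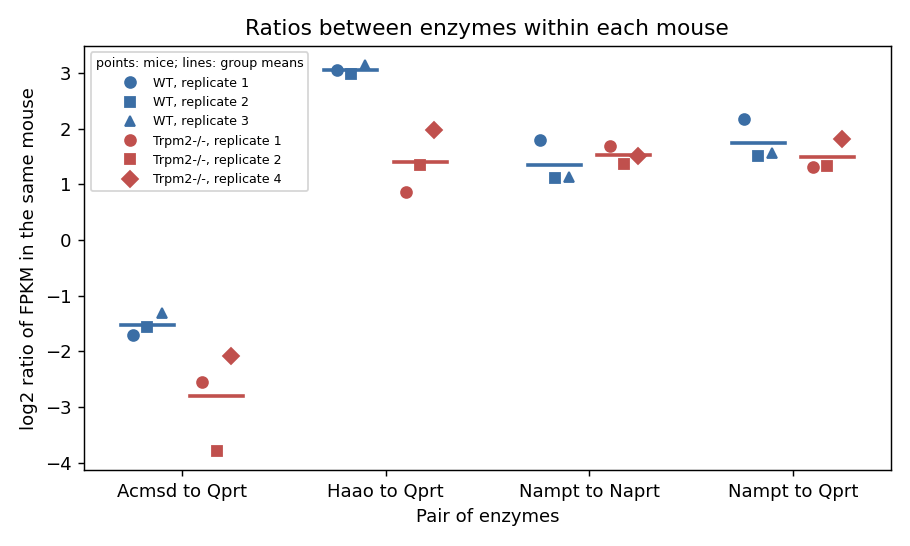
Log2 ratio of FPKM between pairs of enzymes in the same mouse (y axis) for 4 pairs (x axis), with 3 WT (blue) and 3 Trpm2-/- (red) kidneys and lines at group means. Acmsd to Qprt and Haao to Qprt are lower in every Trpm2-/- mouse than in every WT mouse, and both ratios of Nampt overlap.

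Nadsyn1 (chr7:143795584-143822849, minus strand), the amidating synthetase that completes NAD, was at 18.6, 19.6 and 23.8 CPM in WT mice and 19.8, 23.4 and 23.6 CPM in Trpm2-/- mice. The groups overlapped (log2 fold change 0.11, SE 0.161, 95% interval -0.25 to 0.47, adjusted p = 0.711). The interval leaves out a fall of the size measured for Haao or Kmo.

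Both salvage enzymes fell, by smaller folds than Kmo, Kynu and Haao. Nampt (chr12:32819545-32853349), which sets the pace of salvage from nicotinamide, was the member with the most counts. It was at 289, 242 and 269 CPM in WT mice and 161, 156 and 178 CPM in Trpm2-/- mice. The spread within each genotype was small, and the mean was 61.9% of WT (log2 fold change -0.69, SE 0.133, adjusted p = 0.0111). Naprt (chr15:75890956-75894481, minus strand), which starts from nicotinic acid, was at 38.6, 51.7 and 57.1 CPM in WT mice and 23.2, 28.2 and 28.9 CPM in Trpm2-/- mice. No value overlapped and the mean was 54.5% of WT (log2 fold change -0.88, SE 0.172, adjusted p = 0.0122). Of the exonic bases of Naprt, 11.8% are shared with Eef1d on the same strand. Without WT replicate 3 the adjusted p was 0.0606 for Nampt and 0.0640 for Naprt, and without WT replicate 2 it was 0.0569 for Naprt. The ratio of Nampt to Naprt was 3.47, 2.17 and 2.19 in WT mice and 3.22, 2.56 and 2.86 in Trpm2-/- mice, and that of Nampt to Qprt was 4.5, 2.84 and 2.96 against 2.49, 2.51 and 3.5, so both overlapped.

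The transcripts of the 10 genes were next set beside proximal tubule markers of the same mouse. The geometric mean of the 12 markers was 29, 31.1 and 37.8 FPKM in WT mice and 10, 7.59 and 14.5 FPKM in Trpm2-/- mice, a log2 difference of -1.65. Relative to this mean, 5 members overlapped between the genotypes, namely Ido2 (log2 difference 0.05), Acmsd (-0.05), Kmo (0.20), Haao (-0.44) and Kynu (-0.92). The other 5 were higher in every Trpm2-/- mouse than in every WT mouse, namely Naprt (0.80), Nampt (0.97), Qprt (1.24), Afmid (1.52) and Nadsyn1 (1.77), and 0 were lower in every Trpm2-/- mouse. Since the markers themselves fell, 88.7% of all genes tested were likewise higher in every Trpm2-/- mouse on this scale, so the separation of these 5 is not particular to them. The ratio of Nadsyn1 to the markers was almost constant in WT mice, at -2.56, -2.58 and -2.59 on the log2 scale. The part of the markers in the falls was not tested.

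**Figure D4:**
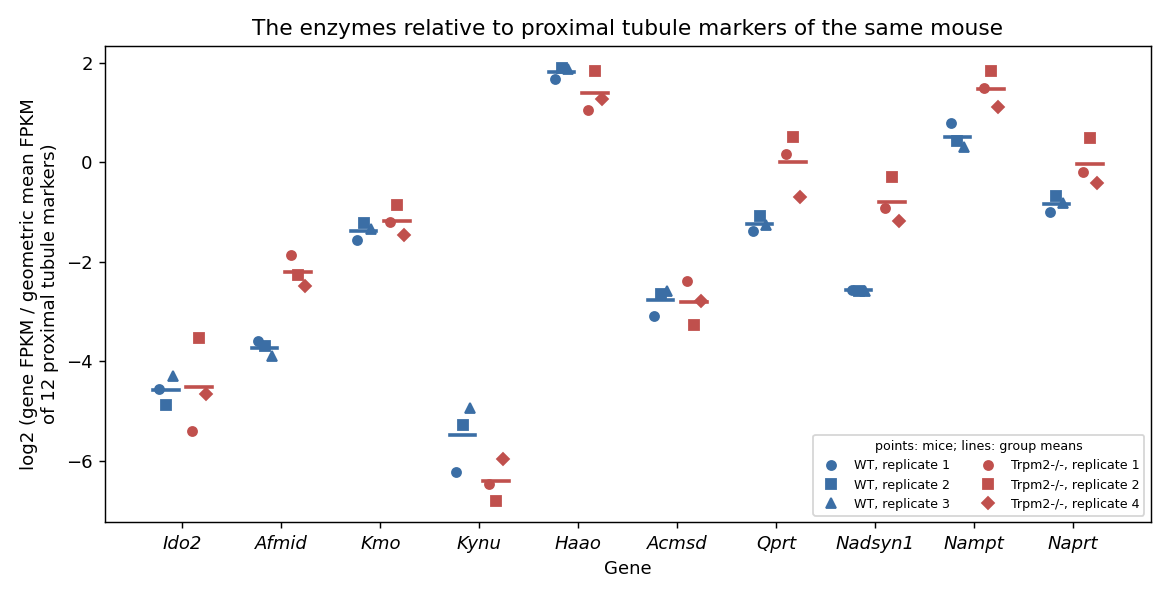
Log2 ratio of each enzyme's FPKM to the geometric mean FPKM of 12 proximal tubule markers in the same mouse (y axis), for 3 WT (blue) and 3 Trpm2-/- (red) kidneys with lines at group means. Ido2, Kmo, Kynu, Haao and Acmsd overlap between genotypes, and Afmid, Qprt, Nadsyn1, Nampt and Naprt are higher in all Trpm2-/- kidneys, as are 88.7% of all genes tested.

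Around the members, 50 other genes of the pathway were examined, of which 43 passed the filter. By edgeR 9 were called lower (20.9%) and 0 higher, beside 7.28% and 4.74% of all genes tested. Their median log2 fold change was -0.23. At an unadjusted p under 0.05, 12 were lower and 3 higher, a threshold at which the share of all genes was not counted. At an adjusted p under 0.05 DESeq2 called 11 lower and 1 higher and limma-voom 9 lower and 0 higher. Over all 15816 genes tested, DESeq2 called 2539 and limma-voom 1850 in either direction. All 3 genes of the breakdown after ACMSD fell (list median -1.43). Gcdh, the glutaryl-CoA dehydrogenase, was at 332, 385 and 451 CPM in WT mice and 129, 149 and 157 CPM in Trpm2-/- mice (log2 fold change -1.43, adjusted p = 0.0015). Aldh8a1, the aldehyde dehydrogenase that takes over from ACMSD, had a log2 fold change of -1.03 (adjusted p = 0.00564), and Dhtkd1, of the 2-oxoadipate dehydrogenase, one of -1.61 (adjusted p = 0.0107).

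Of 4 genes for side arms that convert kynurenine or its hydroxylated form to kynurenic or xanthurenic acid, 2 fell. Aadat was at 35.7, 43.2 and 69.6 CPM in WT mice and 12.1, 12.1 and 20.4 CPM in Trpm2-/- mice (log2 fold change -1.74, adjusted p = 0.00592). Kyat3 had a log2 fold change of -1.29 (adjusted p = 0.00462), while Kyat1 had -0.74 (adjusted p = 0.0608) and Got2 -0.04 (adjusted p = 0.893).

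None of the 7 tested genes in the list of last steps to NAD was called by edgeR, with a list median of -0.15. The tested genes were the NMN adenylating enzymes Nmnat1 and Nmnat3, the riboside kinase Nmrk1, the phosphorylase Pnp, the NAD kinases Nadk and Nadk2 and the mitochondrial NAD carrier Slc25a51. The kinases of NAD and the carrier act on NAD already made, so the median is not of synthesis steps alone. The carrier Slc25a51 was nearest the threshold (log2 fold change -0.49, adjusted p = 0.0535). At an unadjusted p under 0.05 it was the 1 gene of the list that was lower, with 0 higher, and it was also the 1 gene that DESeq2 called, while limma-voom called 0. Among 12 tested NAD consumers only Sirt3, the mitochondrial deacetylase, was called. That is 8.33% called lower, near the 7.28% of all genes tested. Sirt3 was at 39.7, 46.3 and 41.3 CPM in WT mice and 23.1, 21.2 and 22.3 CPM in Trpm2-/- mice (log2 fold change -0.93, adjusted p = 0.00333). Its values did not overlap between the genotypes, a separation that 16.8% of all genes tested showed in this direction.

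Of 7 tested carriers, 2 fell, and both carry nicotinate in the tubule among other anions. Slc5a8 was at 87.9, 102 and 125 CPM in WT mice and 26.9, 33 and 31.1 CPM in Trpm2-/- mice (log2 fold change -1.79, adjusted p = 0.00126). Slc22a13 was at 47.1, 41.4 and 79.3 CPM against 12.5, 22.7 and 13.9 CPM (log2 fold change -1.77, adjusted p = 0.00578). The 5 carriers of amino acids on the list (Slc6a19, Slc7a5, Slc7a8, Slc3a2 and Slc16a10) had log2 fold changes between -0.25 and 0.57 and were not called. Under the scaling to proximal tubule markers, 0 of these pathway genes were lower and 36 were higher, beside 0.259% and 93.5% of all genes tested, so that this count says nothing about the pathway.

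**Figure D5:**
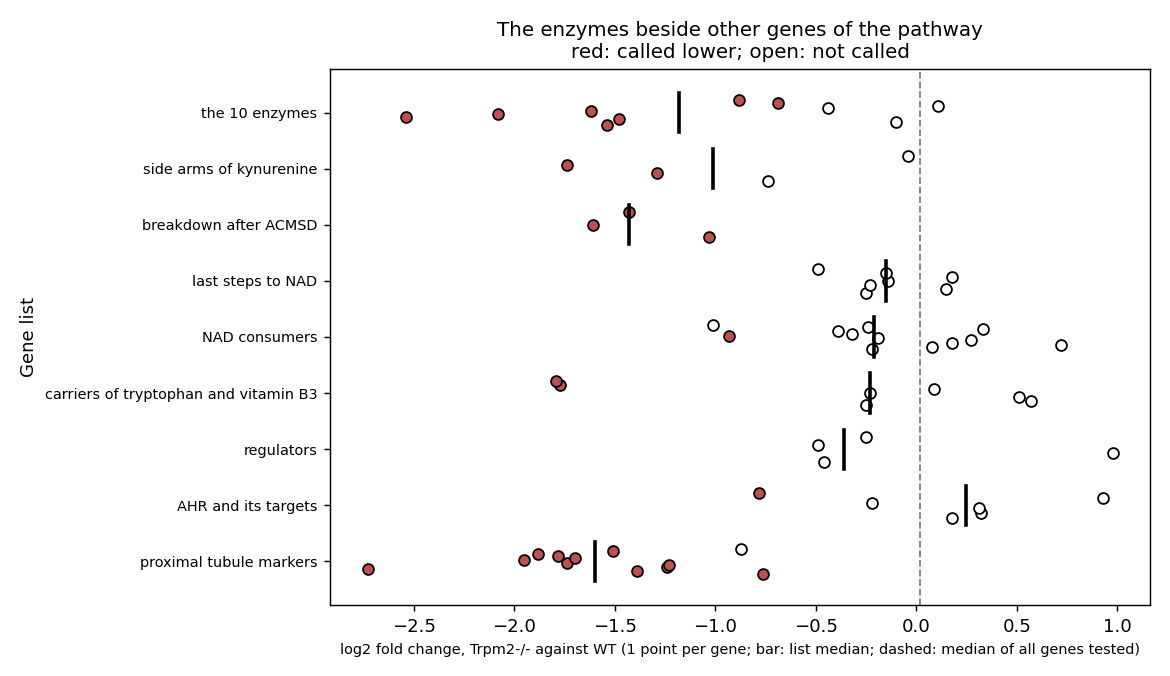
Log2 fold change in Trpm2-/- against WT kidneys (x axis, 1 point per gene tested) for the 10 enzymes, 7 lists of other pathway genes and 12 proximal tubule markers (y axis), with list medians as bars and the median of all genes tested, 0.02, dashed. Red points were called lower, and the lists of side arms and of the breakdown after ACMSD have medians of -1.01 and -1.43. The list of last steps to NAD, which also holds NAD kinases and the mitochondrial NAD carrier, has -0.15.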

How the data were processed

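Kidney RNA of 6 mice was sequenced on an Illumina HiSeq instrument after NEBNext Ultra II library preparation. The authors deposited whole-number read counts per gene, not normalized, and FPKM values that they computed from the counts, gene length and a library total. The submitters' processing notes name HISAT2, StringTie and the build mm9, with no version. However, 98.3% of 54409 shared genes lie at their GRCm38 positions, so positions are given on GRCm38. Strandedness is not given in the sources used here.

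Counts were tested in R 4.3.3 with edgeR 4.0.16 (TMM, default filterByExpr, two-sided quasi-likelihood test on genotype, Benjamini-Hochberg adjustment over 15816 genes), after a check on simulated data. The standard error is the log2 fold change over the square root of F, and intervals use the moderated degrees of freedom. Ratios and marker comparisons used deposited FPKM without a pseudocount and carry no test. All members are named. Of each pathway list, genes with an adjusted p under 0.05 are named, up to 4, with some others added after their values were seen. Members and lists were chosen with earlier results of these data known. Alternatives were other normalizations (DESeq2 size factors, upper quartile), other filters (none, or a mean CPM of at least 1), DESeq2 1.42.0, limma 3.58.1 (voom, and log2 of FPKM with 1 or 0.1 added), the replicate number as a block, libraries without mitochondrial genes or scaled to proximal tubule markers, and leaving out each mouse. The labels do not say whether mice shared a litter or cage. Each p-value sets the genotype difference against the variation between mice within genotypes, with the dispersion moderated across genes. Some items of the lists and promoters are not reported here.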

Additional observations from a re-analysis of the deposited data

How the results depend on the processing

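Scaling the libraries to the proximal tubule markers raised the median of all genes from 0.02 to 1.74, and log2 fold changes were then 0.24 for Ido2, 1.58 for Afmid, 0.25 for Kmo, 0.05 for Acmsd, 1.33 for Qprt, 1.01 for Nampt and 0.87 for Naprt, which a fall smaller than this shift had to give, with 1.85 for Nadsyn1, -0.35 for Haao and -0.85 for Kynu. Under this scaling 0 members were called lower and 5 higher (Afmid, Qprt, Nadsyn1, Nampt and Naprt), beside 93.5% of all genes tested called higher, 0 were past the threshold of the methods, and 0 pathway genes were lower and 36 higher. Apart from this scaling and from leaving out mice, 6 or 7 members were called lower. Ido2 was lost with limma on log2(FPKM + 0.1) (adjusted p = 0.0507) and Kynu with limma on log2(FPKM + 1) (adjusted p = 0.0507), where 3 members passed the threshold of the methods, since the pseudocount shrinks the change of low genes. Replicate numbers 1 and 2 occur in both genotypes but name different mice, whose deviations correlated at 0.0641 and -0.012. With the replicate block 6 members were lower, Ido2 being lost (adjusted p = 0.114), and 2 pathway genes were higher. Replicate 3 occurs only in WT and replicate 4 only in Trpm2-/- mice, so neither mouse adds to the genotype difference in that fit. Pathway genes called higher, 0 in the report, were 1 with upper quartile scaling, a mean CPM of at least 1, DESeq2 or no mitochondrial genes, and 3 without a filter. With each mouse left out, the members called lower ranged from 2 to 7 and pathway genes called higher from 0 to 2, and Afmid ranged from -0.24 to 0.11. Kynu, Ido2 and Afmid rest on the fewest counts.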

Other observations

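Transcription regulators of the route and the receptor for its products were examined beside the enzymes. None of 4 regulators was called by edgeR. At an unadjusted p under 0.05, 1 was lower (Hnf4a) and 1 higher (Ppara), and DESeq2 and limma-voom called 0. Hnf4a, a factor of the proximal tubule and liver, had a log2 fold change of -0.49 (adjusted p = 0.135), Ppargc1a, a coactivator of mitochondrial genes, one of -0.46 (adjusted p = 0.182), and Ppara one of 0.98 (adjusted p = 0.146). AHR is the receptor that kynurenine and kynurenic acid can activate. Of 6 tested genes for AHR and its targets, 1 was called lower, beside 7.28% of all genes tested. This was Nqo1, a quinone reductase that NRF2 also drives, at 255, 248 and 300 CPM in WT mice and 153, 148 and 169 CPM in Trpm2-/- mice (log2 fold change -0.78, adjusted p = 0.0075). Cyp1a1 and Cyp1b1, the classical targets, had log2 fold changes of 0.31 (adjusted p = 0.704) and -0.22 (adjusted p = 0.805), and Tiparp one of 0.93 (adjusted p = 0.0508, past the threshold with DESeq2). Among the 10 enzymes, WT replicate 3 was the highest WT mouse for 9 of them and WT replicate 1 the lowest for 8, and Trpm2-/- replicate 4 was the highest Trpm2-/- mouse for 7. The geometric mean of the proximal tubule markers was likewise lowest in WT replicate 1 (29 FPKM) and highest in WT replicate 3 (37.8 FPKM). Among Trpm2-/- mice it was highest in replicate 4 (14.5 FPKM). The share of all genes with this order was not counted.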
